A study of Mus musculus with 21 samples.

Results

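The genes described here encode the dystrophin-glycoprotein complex and the proteins next to it at the muscle cell membrane, together with the muscle intermediate filament protein desmin. They were chosen by name and not by a rule on their values, though with earlier results of these data known. The genes are Des, Dmd, Utrn, Dag1, Sgca, Sgcb, Sgcd, Dysf and Cav3, 9 of the 19304 mouse protein-coding genes of at least 2 kb in the RefSeq annotation of GRCm38. The measurement was H3K36me3, trimethylation of lysine 36 of histone H3, by ChIP-seq, the sequencing of DNA pulled down with an antibody against the mark, in mouse C2C12 myoblasts, which fuse into myotubes in culture. Each value below is the percent of a gene body, from the annotated start to the annotated end of the gene, that lay inside the merged peaks of 1 library (its cover). Differences between covers are in percentage points.

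All cells were C2C12, sampled on day 0, on day 1 in control or methionine-restricted medium, and on day 5 in control or methionine-restricted medium. Wild-type (WT) cells had 2 libraries in each of these 5 conditions. The 2 lines with a knockout (KO) of Setd2, the gene of the enzyme that places this mark, had 1 library each per condition. The day 0 samples carry no medium label, and the labels do not say that the libraries of a group came from separate cultures, so p-values measure the spread between these libraries, which may be technical. The labels say nothing of the clones behind the knockout lines, and the peak names inside the lists call the same libraries replicates 1 and 2 of a knockout group. The labels were followed. In bulk chromatin, fewer cells with the mark and less mark per cell cannot be told apart.

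Dystrophin, the product of Dmd, ties the actin skeleton under the membrane of a muscle fibre to dystroglycan, which binds laminin outside the cell. The sarcoglycans brace that link, utrophin can take the place of dystrophin, dysferlin helps to reseal torn membrane, caveolin-3 shapes the caveolae of muscle, and desmin filaments tie the contractile apparatus to the membrane. Loss of several of these proteins causes muscular dystrophy. H3K36me3 is laid down behind elongating RNA polymerase, so it lies over the body of a transcribed gene and is poor at its start.

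Cover by day and medium fell into distinct patterns among the 9 genes. Des and Sgcb were covered on every day in WT cells and lost cover under restriction at day 1. Dysf, Sgca and Cav3 had next to no cover at day 0 and gained 84.8, 55.9 and 48.6 points by day 5 in control medium. Dag1 and Utrn began at an intermediate level and rose by 50.4 and 26.1 points. Dmd and Sgcd had almost no peaks in WT cells.

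Because the mark follows transcription, the bases just before the start sites are shown for 3 genes that differ in when they were covered: Des, covered throughout, and Cav3 and Sgca, with little or no cover before day 5. They come from the RefSeq promoter table for GRCm38.p6 and are written 5′ to 3′ on the strand of the gene, ending at the base before the start site. Capitals mark CAGCTG, the letters of the E-box that myogenic factors such as MyoD prefer. It reads the same on both strands and is one form of the general E-box CANNTG. The windows are chr1:75360042-75360291, plus strand, for Des, chr6:112459255-112459504, plus strand, for Cav3, and chr11:94976328-94976577, minus strand, for Sgca.
Des: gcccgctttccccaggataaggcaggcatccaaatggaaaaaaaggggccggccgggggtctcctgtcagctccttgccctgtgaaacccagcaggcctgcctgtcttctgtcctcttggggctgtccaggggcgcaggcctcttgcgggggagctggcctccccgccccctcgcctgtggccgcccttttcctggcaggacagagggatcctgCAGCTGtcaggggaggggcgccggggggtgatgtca
Cav3: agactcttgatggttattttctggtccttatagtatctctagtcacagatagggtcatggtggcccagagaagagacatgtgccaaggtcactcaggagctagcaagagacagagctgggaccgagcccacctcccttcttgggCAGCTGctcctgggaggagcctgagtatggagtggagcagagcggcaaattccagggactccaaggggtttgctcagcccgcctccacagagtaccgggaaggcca
Sgca: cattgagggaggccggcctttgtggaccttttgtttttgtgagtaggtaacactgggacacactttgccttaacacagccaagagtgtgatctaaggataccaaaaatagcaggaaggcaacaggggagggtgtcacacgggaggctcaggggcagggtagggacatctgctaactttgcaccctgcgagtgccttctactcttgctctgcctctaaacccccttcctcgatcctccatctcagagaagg
The first base of CAGCTG lay 36 bases before the start site of Des and 106 bases before that of Cav3. The 250 bases before the start held these letters in Des and Cav3 and at none of the other listed starts of the 9 genes, which have 12 such windows in all. Of 32851 promoter windows of that length in the table, 13% held CAGCTG and 66.2% held CANNTG. A match describes the letters and not a bound site, and no match says only that these letters are not in this window.

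The WT peak lists held 63423 to 87398 peaks and 110 to 183 Mb of genome, against 0.307 to 74.1 Mb in knockout line 1 and 0.00821 to 7.13 Mb in line 2. Read depth is not known from peak lists, and their number and length limit the precision of a cover. Over the 9514 genes tested, the median cover of a WT library was 45.2% to 57.2% in the 6 libraries of day 0 or control medium and 28.5% to 36.4% in the 4 restricted ones, so restriction was accompanied by lower cover over many genes. Of 10 myoblast and muscle marker genes, 9 had at least 50% cover in the day 5 controls and 2 in the restricted cells of that day. Their summed cover was 155 to 156 points at day 0, 404 to 424 and 75.6 to 101 at day 1 in control and restricted medium, and 737 to 764 and 213 to 225 at day 5. The 8 proliferation genes summed to 717 to 726 at day 0, and on day 5 to 336 to 361 in controls and 206 to 233 in restricted cells. On that day 5 of the 8 were lower under restriction and 2 were higher, Mcm3 with 19.8% in controls and 71.9% in restricted cells and Mcm5 with 20.9% and 46.5%. Markers of adipocytes (5 of 5 found), bone and cartilage (4 of 5), neurons and glia (5 of 5) and blood and endothelium (4 of 5) summed to at most 3.89 points in any WT library, which was Lep in 1 library. The part of muscle differentiation in the gene results that follow was not tested. Cover of the Setd2 body was 45.6% to 82.8% in WT, 0% to 24.0% in line 1 and 0% in the 5 libraries of line 2, which checks the labels only indirectly, since the mark is not the transcript.

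**Figure D1:**
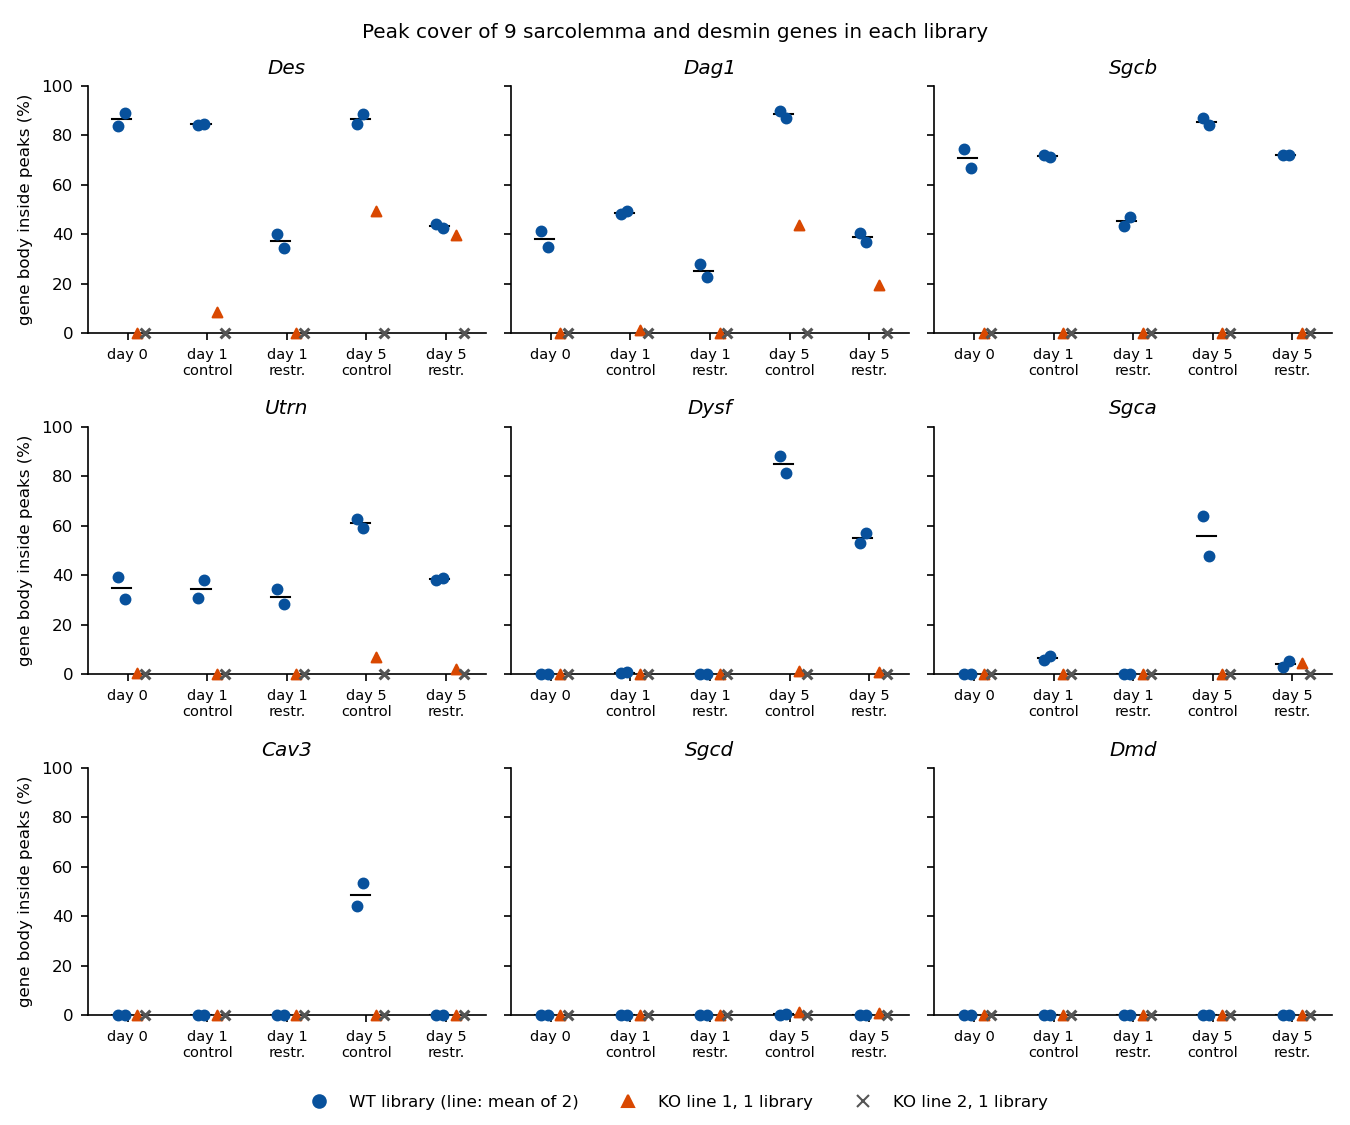
Percent of each gene body inside H3K36me3 peaks (vertical axis, 0 to 100%) in each condition (horizontal axis) for the 9 genes. Circles are WT libraries with their mean of 2 as a line, triangles knockout line 1 and crosses knockout line 2; the WT circles of Dysf stand high in both media of day 5, those of Sgca and Cav3 in the day 5 controls alone (Sgca had 5.70% and 7.17% in the day 1 controls), and those of Dmd and Sgcd lie at or near 0.

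Des, on chromosome 1 (8.29 kb, plus strand), encodes desmin. Its cover was 83.9% and 89.1% in the 2 WT libraries of day 0. In control medium it was 84.4% and 84.6% at day 1 and 84.7% and 88.8% at day 5. Under restriction it was 40.0% and 34.5% at day 1 and 43.9% and 42.6% at day 5. The 4 restricted libraries lay below all 6 others, and the 2 day 0 libraries were the lowest and the highest of those 6, so the controls of both later days lay between them. From day 0 to day 5 in control medium Des changed by 0.25 points (95% interval -7.86 to 8.35), and the change did not pass the test (limma, adjusted p = 0.971). The Des transcript is known to accumulate as myoblasts fuse. Cover cannot exceed the whole gene body, and the part of that limit in the values of Des was not tested. The authors' fold enrichment of the strongest peak over Des was 6.38 and 7.33 at day 0, 5.83 in both day 1 controls, 5.62 and 5.22 in the day 5 controls and 2.59 to 3.67 in the 4 restricted libraries.

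Sgcb, on chromosome 5 (15 kb, minus strand), encodes beta-sarcoglycan, a sarcoglycan also made outside muscle. Its cover was 74.5% and 66.8% at day 0. In control medium it was 71.9% and 71.1% at day 1 and 87.0% and 84.2% at day 5. Under restriction it was 43.5% and 46.9% at day 1 and 72.1% and 72.2% at day 5. The day 1 restricted libraries were the lowest of the 10, and the day 5 restricted libraries lay within the range of day 0. The widest peak over the gene was 12.4 and 12.3 kb in the day 5 controls, and 3.58 and 3.85 kb in the restricted libraries of day 1.

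Dag1, on chromosome 9 (59.1 kb, minus strand), encodes the alpha and beta chains of dystroglycan, the core of the complex. Its cover was 41.2% and 35.0% at day 0. In control medium it was 48.2% and 49.3% at day 1 and reached 89.9% and 87.1% at day 5. Under restriction it was 28.0% and 22.5% at day 1 and 40.5% and 36.8% at day 5. The day 5 control libraries stood apart from the other 8, and the day 5 restricted ones overlapped those of day 0. Separate peaks numbered 19 and 21 at day 0, 7 and 12 in the day 5 controls and 16 in each restricted library of that day, so the higher cover at day 5 came with fewer and wider peaks, up to 23.1 kb.

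Utrn, on chromosome 10 (488 kb, minus strand), encodes utrophin. Its cover was 39.4% and 30.4% at day 0, 30.9% and 37.9% in the day 1 controls and 34.3% and 28.3% in the restricted cells of that day. These 3 groups overlapped. On day 5 it was 62.8% and 59.2% in control medium and 38.2% and 38.8% under restriction, so the day 5 control pair alone stood above the rest. In length, that is 297 ± 12.5 kb (SD, n = 2) at day 5 in control medium against 170 ± 31.0 kb at day 0, in 120 and 126 peaks against 90 and 129.

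Dysf, on chromosome 6 (203 kb, plus strand), encodes dysferlin, and showed the largest gain of the 9 genes between day 0 and day 5 in control medium. At day 0 no peak touched it in one library and 0.15% of it was covered in the other. At day 1 its cover was 0.46% and 0.72% in control medium and 0% in both restricted libraries. At day 5 it was 88.2% and 81.5% in control medium and 52.9% and 57.1% under restriction, so all 4 day 5 libraries stood far above the other 6. The control libraries of day 5 held 31 and 43 peaks over 179 and 165 kb of Dysf, and the restricted ones 63 and 61 shorter peaks over 107 and 116 kb.

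Sgca, on chromosome 11 (13.6 kb, minus strand), encodes alpha-sarcoglycan, the sarcoglycan found in striated muscle only. No peak touched it at day 0 or at day 1 under restriction. At day 1 in control medium its cover was 5.70% and 7.17%, at day 5 in control medium 64.1% and 47.8%, and at day 5 under restriction 2.87% and 5.36%. The day 5 control libraries were far from each other but were the only WT libraries above 10%. Another gene, Hils1, overlaps 6.38% of the Sgca body.

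Cav3, on chromosome 6 (13.4 kb, plus strand), encodes caveolin-3. It had cover only at day 5 in control medium, with 44.0% and 53.3% in the 2 libraries, and 0% in the other 8 WT libraries. These peaks were weak: the highest −log10 q over Cav3 in the authors' lists was 3.13 in one library and 2.79 in the other, and with only peaks of at least 3 the cover was 24.5% and 0%. With lists cut to equal length it was 32.7% and 12.6%. Other annotated genes, LOC115490429 and Gm35649, overlap 24.6% of its body, and peak lists carry no strand.

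Dmd, on chromosome X, is 2390 kb long in this annotation and encodes dystrophin. It had no peak in 9 of the 10 WT libraries, and the only one in WT was a single peak of 0.29 kb at day 1 under restriction. No library of either genotype had a peak in the last 157 kb of the gene, after the start site of its shorter transcripts. Sgcd, on chromosome 11 (1018 kb, minus strand), encodes delta-sarcoglycan, and was covered over 0.18% and 0.30% at day 5 in control medium and over at most 0.06% in the other WT libraries. The annotated Sgcd body begins 610 kb before its listed start site. Measured from that site, its mean cover at day 5 in control medium was 0.60% in place of 0.24%, and that of Dmd from its outermost listed start was 0%.

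**Figure D2:**
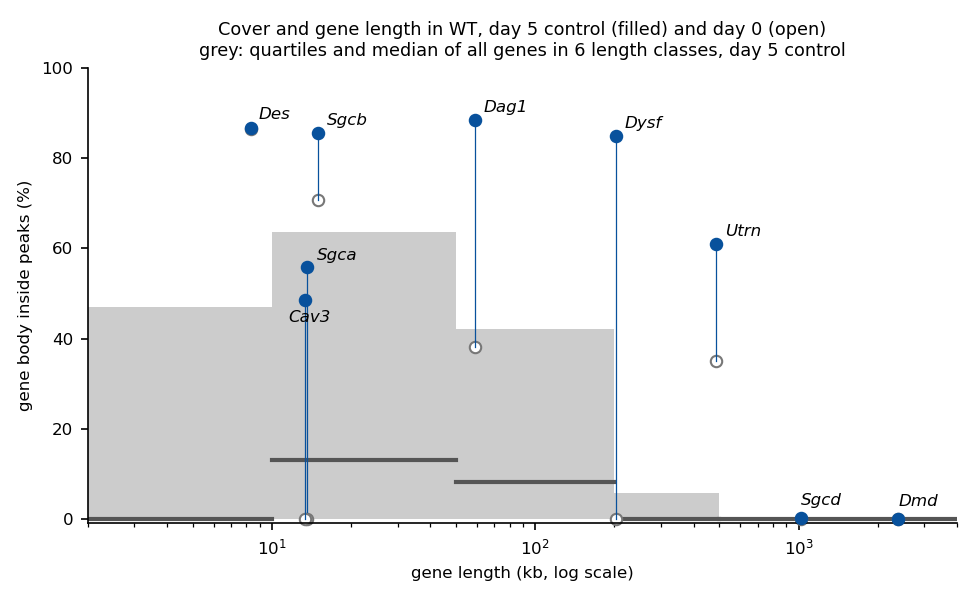
Mean cover of the 9 genes in WT cells (vertical axis, percent) against gene length (horizontal axis, kb on a log scale), at day 5 in control medium (filled) and at day 0 (open). Grey bars span the quartiles of all genes in 6 length classes at day 5 in control medium and dark lines their medians; Dysf and Utrn lie above the quartiles of their class, and Sgcd and Dmd are near 0 like the genes around them.

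Very long genes had little cover in general, and the part of length in the values of Dmd and Sgcd was not tested. Of 59 genes of at least 1000 kb, 1 had at least 5% cover at day 5 in control medium, Cdh13 with 30.3%. Among the 763 genes of 200 to 500 kb, the class of Utrn and Dysf, 25.8% reached 5%, with an upper quartile of 5.68%, and the most covered gene was Ttn with 96.8%. Cover of Utrn at day 0 exceeded that of 65.7% of all genes, and cover of Dysf at day 5 in control medium that of 95.5%. For comparison, the day 5 control cover of Des, Dag1 and Sgcb exceeded that of 96.7%, 97.6% and 95.9% of genes, that of Sgca 77.2% and that of Cav3 73.2%.

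Whether the genes changed with differentiation was tested in WT cells with limma over the 9514 genes whose mean cover was at least 5% in the 10 WT libraries, with Benjamini-Hochberg adjustment over all of them. Dmd and Sgcd did not pass that filter and have no test. Cav3 and Sgca had means of 0% and 2.64% without the day 5 control libraries, and Dysf a mean of 0.22% without the 4 day 5 libraries. They passed only through the group in which they were high, had to differ in it, and lend no weight to a count. From day 0 to day 5 in control medium, Dysf rose by 84.8 ± 3.46 points (SE, adjusted p = 1.56e-06), Sgca by 55.9 ± 4.48 (3.93e-05), Cav3 by 48.6 ± 2.81 (7.22e-06), Dag1 by 50.4 ± 4.08 (3.87e-05), Utrn by 26.1 ± 4.62 (0.00342) and Sgcb by 14.9 ± 3.51 (0.0135), all by limma. Of all genes tested, 12.2% rose and 27.8% changed in either direction, and the median gene moved by -1.17 points. Of the 4 genes whose mean was at least 5% also without day 5, Des, Dag1, Utrn and Sgcb, 3 rose. The rise of Sgcb lost its call in 5 of 18 alternative analyses, with adjusted p up to 0.0826, among them without the second day 0 library (0.0726) and without the first day 5 control library (0.0826). With lists cut to equal length the rise of Sgca was 25.3 points (limma, adjusted p = 0.0362).

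Most of that change came after day 1. Between day 0 and day 1 in control medium none of the 7 tested genes passed the test (limma), 1 had an unadjusted p under 0.05, and 6.63% of all genes were called. The gene with an unadjusted p under 0.05 was Dag1, which differed by 10.7 ± 4.08 points (adjusted p = 0.152). Between day 1 and day 5 in control medium, where 23.1% of genes changed and 17.1% rose, Dysf rose by 84.3, Sgca by 49.5, Cav3 by 48.6, Dag1 by 39.8, Utrn by 26.6 and Sgcb by 14.1 points (limma, adjusted p from 2.04e-06 to 0.0209). Des differed by 2.27 points (95% interval -5.84 to 10.4). With lists of equal length the rise was 25.3 points in Sgca and 16.6 in Utrn, both still called. Sgcb lost its call in 8 of 18 alternatives: after centring each library on its median (8.01 points, adjusted p = 0.143), with lists of equal length (0.124), with only peaks of −log10 q of at least 3 (0.136), with peaks up to 1 kb apart joined (0.10) and without any 1 of the 4 libraries compared (0.0578 to 0.127). The comparisons between days share libraries with each other and with those of restriction, so their values for a gene are not independent.

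Methionine restriction at day 1 was compared with control medium of the same day. Des fell by 47.2 ± 3.54 points (limma, adjusted p = 5.58e-05), Sgcb by 26.3 ± 3.51 (0.0007) and Dag1 by 23.5 ± 4.08 (0.00251). Both restricted libraries lay below both control libraries in each, and the share of all genes separated in this way was not counted. Utrn differed by -3.13 ± 4.62 points (0.631), an interval of -13.7 to 7.44, and its libraries overlapped. Of all genes, 38.3% changed, 36.0% fell and the median difference was -7.99 points. Of the 4 genes whose mean was at least 5% also without day 5, Des, Dag1, Utrn and Sgcb, 3 fell. Sgca, Dysf and Cav3 had 6.44%, 0.59% and 0% mean cover in the day 1 controls, which leaves little or nothing to lose. Sgca differed by -6.44 points (limma, adjusted p = 0.292) and its libraries did not overlap. It was called in 4 of 18 alternatives: on the arcsine scale (0.00756), with only the libraries compared (0.0202) and without the first (0.0193) or second (0.0236) day 5 control library. With lists of equal length Dag1 differed by -12.8 points (0.0467). With each library centred on its median, Sgcb differed by -11.1 points and was still called (0.0302), Dag1 was no longer called (-8.34, adjusted p = 0.0709, over a range of 0.00242 to 0.0709 in 18 alternatives), and Utrn and Dysf were called higher (12.1 and 14.6 points). The same centring also called Cav3 higher by 15.2 points, although it had no cover in any of these 4 libraries.

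At day 5, restriction lowered Des, Dag1, Utrn, Sgcb and Dysf, the 5 genes whose mean cover was at least 5% also without the day 5 controls. Of all genes, 45.8% changed, 41.5% fell and the median difference was -9.16 points. With Sgca and Cav3 included, Sgca fell by 51.8 ± 4.48 points (limma, adjusted p = 6.53e-05), Dag1 by 49.8 ± 4.08 (4.68e-05), Cav3 by 48.6 ± 2.81 (1.21e-05), Des by 43.5 ± 3.54 (4.53e-05), Dysf by 29.9 ± 3.46 (0.000255), Utrn by 22.5 ± 4.62 (0.00476) and Sgcb by 13.5 ± 3.51 (0.0140). Sgca and Cav3 passed the filter through the day 5 control libraries alone, so their fall was built into their being tested. In none of these genes did the restricted and control libraries overlap, but the share of all genes without overlap was not counted. The calls of Sgcb and Utrn were the least firm: after centring, the difference was 3.22 points in Sgcb (0.470) and -5.80 in Utrn (0.192). With lists cut to equal length Utrn differed by -9.16 points and missed the threshold (0.0525), and Sgca differed by -22.6 points (0.0419). Cav3 did not pass the filter with such lists, and its cover was 32.7% and 12.6% in the day 5 controls and 0% in the restricted libraries. Centring moved Dag1 to -33.1, Cav3 to -32.0, Des to -26.9 and Dysf to -13.2 points, all still called, and with only peaks of −log10 q of at least 3 Dysf differed by -47.6. Over 18 alternatives the adjusted p of Sgcb ran from 0.00775 to 0.470 and that of Utrn from 0.0030 to 0.192, and Sgcb also lost its call with lists of equal length (0.103), with only peaks of −log10 q of at least 3 (0.108) and without the first day 5 control library (0.0853) or without the first (0.0691) or second (0.0663) day 5 restricted library.

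**Figure D3:**
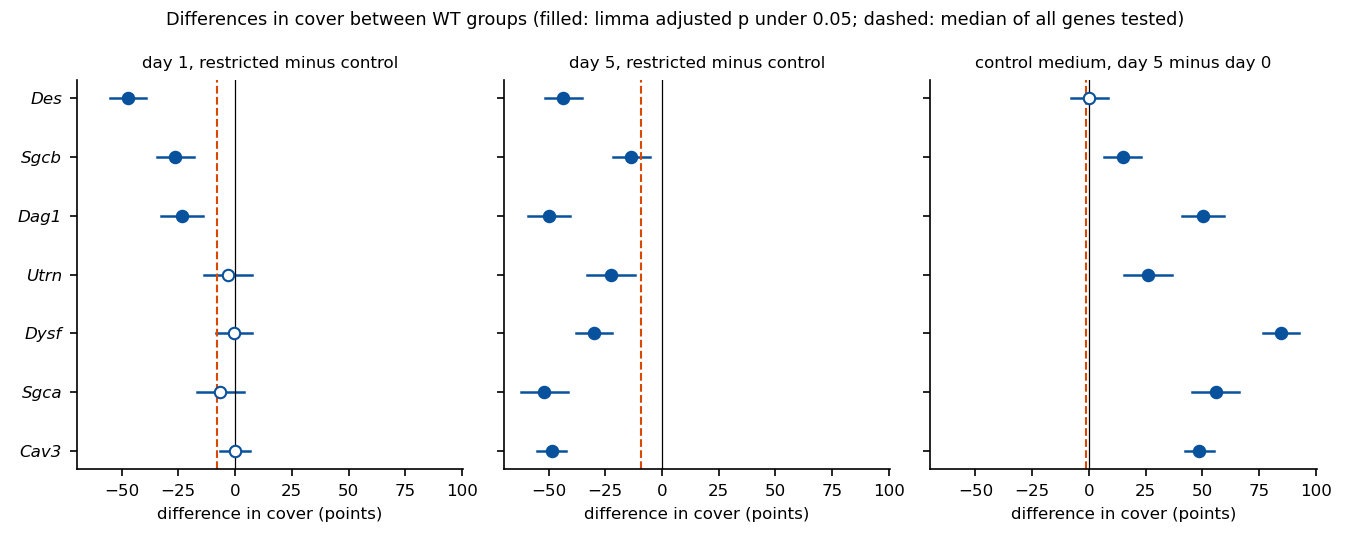
Difference in cover between WT groups in percentage points (horizontal axis) for the 7 genes tested, with 95% intervals from limma. Filled points have an adjusted p under 0.05 and the dashed line is the median of all 9514 genes; at day 5 the restricted minus control points lie from -13.5 to -51.8, and from day 0 to day 5 the 6 filled points lie from 14.9 to 84.8 and Des, open, at 0.25.

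Genes differed in how much of their day 5 control cover remained under restriction. As a share of the control mean, Sgcb kept 84.3%, Dysf 64.8%, Utrn 63.1%, Des 49.8%, Dag1 43.7%, Sgca 7.36% and Cav3 0%. Over the 5040 genes with at least 50% cover in the day 5 controls, the median share kept was 81.2%, with quartiles of 60.7% and 94.4%. Des and Dag1 kept less than the lower quartile, and 15.9% and 12.6% of those genes kept less than they did. At day 1 Des kept 44.1% and Sgcb 63.2%, against a median of 79.6% over 4421 such genes.

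The restricted cells of day 5 were also set against day 0. Des was 43.3 ± 3.54 points lower (limma, adjusted p = 3.81e-05) and Dysf 54.9 ± 3.46 points higher (1.29e-05), while 47.6% of all genes changed and the median gene moved by -9.84 points. Dag1 differed by 0.58 (95% interval -8.75 to 9.90), Utrn by 3.59 (-6.98 to 14.2), Sgcb by 1.46 (-6.57 to 9.49), Sgca by 4.11 (-6.16 to 14.4) and Cav3 by 0 points, and these 5 did not pass the test. Dysf passed the filter only through the day 5 libraries, so its gain was built into its being tested. With lists of equal length Utrn was called higher by 12.5 points (adjusted p = 0.0167), and on the arcsine scale Sgca was called higher (0.0168). After centring on the library median all 7 were called, Des as lower (-24.2 points) and the other 6 as higher, where 59.7% of all genes were called. With only peaks of −log10 q of at least 3 the gain of Dysf was 33.0 points.

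The effect of restriction was larger at day 5 than at day 1 in Dag1, by 26.3 ± 5.76 points (limma, adjusted p = 0.0379), where 5.20% of all genes were called for this difference of differences. It was also larger in 3 genes that passed the filter only through day 5 libraries and had little or no cover to lose at day 1, so that nothing is read from their calls: by 48.6 ± 3.97 points in Cav3 (0.000324), 45.4 ± 6.34 in Sgca (0.00570) and 29.3 ± 4.89 in Dysf (0.0114). Dag1, which had 48.8% at day 1, lost this call when any 1 of the 8 libraries of the 4 groups was left out (adjusted p 0.0529 to 0.148) or peaks up to 1 kb apart were joined (0.105), and with lists of equal length its difference was 45.7 points. Sgca lost its call with lists of equal length (22.6 points, 0.251). With only peaks of −log10 q of at least 3 the difference in Dysf was 47.6 points. Dysf lost it without the first (0.0580) or second (0.0556) day 1 control library or the first day 5 restricted library (0.0542), and on the arcsine scale (0.0586). The other 3 genes did not pass this test. Written as the day 5 effect minus the day 1 effect, where a value above 0 is a smaller fall at day 5, the difference was 3.72 points in Des (95% interval -7.75 to 15.2), 12.8 in Sgcb (1.46 to 24.2, adjusted p = 0.190) and, with a larger fall at day 5, -19.3 in Utrn (-34.3 to -4.40, adjusted p = 0.139).

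The position of the peaks along each gene was described in WT means, with no test. The 5′ part of the gene was poorer in peaks than the rest in most of the covered genes. At day 5 in control medium, cover of the first, middle and last portions of equal length was 60.4%, 100% and 100% in Des, 56.8%, 100% and 100% in Sgcb and 5.86%, 87.3% and 74.7% in Sgca. In Dysf it was 70.7%, 95% and 88.9% and in Cav3 24.8%, 63.6% and 57.6%, while in Dag1 it was near even, at 86.9%, 91.8% and 86.8%. No peak in WT extended upstream of the annotated start of any of the 9 genes, and none ran more than 1.61 kb past an annotated end.

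Under restriction the cover that remained lay in different places in different genes. Des kept its middle, with 96.7% there at day 5, and lost its 3′ portion, from 100% to 10.2%. Sgcb kept its 3′ portion at 96.4% and went from 56.8% to 28.2% in its 5′ portion. In Dag1 the middle portion went from 91.8% to 25.8%, a level close to its 26.9% at day 0. Dysf went from 70.7% to 31.0% in the 5′ portion and from 95% to 73.2% in the middle. In twentieths of the Utrn body, cover at day 0 was 73.3% to 85.3% from the 6th to the 10th and 1.81% in the 13th, and in the day 5 controls 94.7% to 97.2% and 10.5% in the same places. The first twentieth of Utrn had 43.1%, 39.7% and 69.9% at day 0 and in the controls of day 1 and day 5, and 5.59% and 14.4% under restriction on those days.

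**Figure D4:**
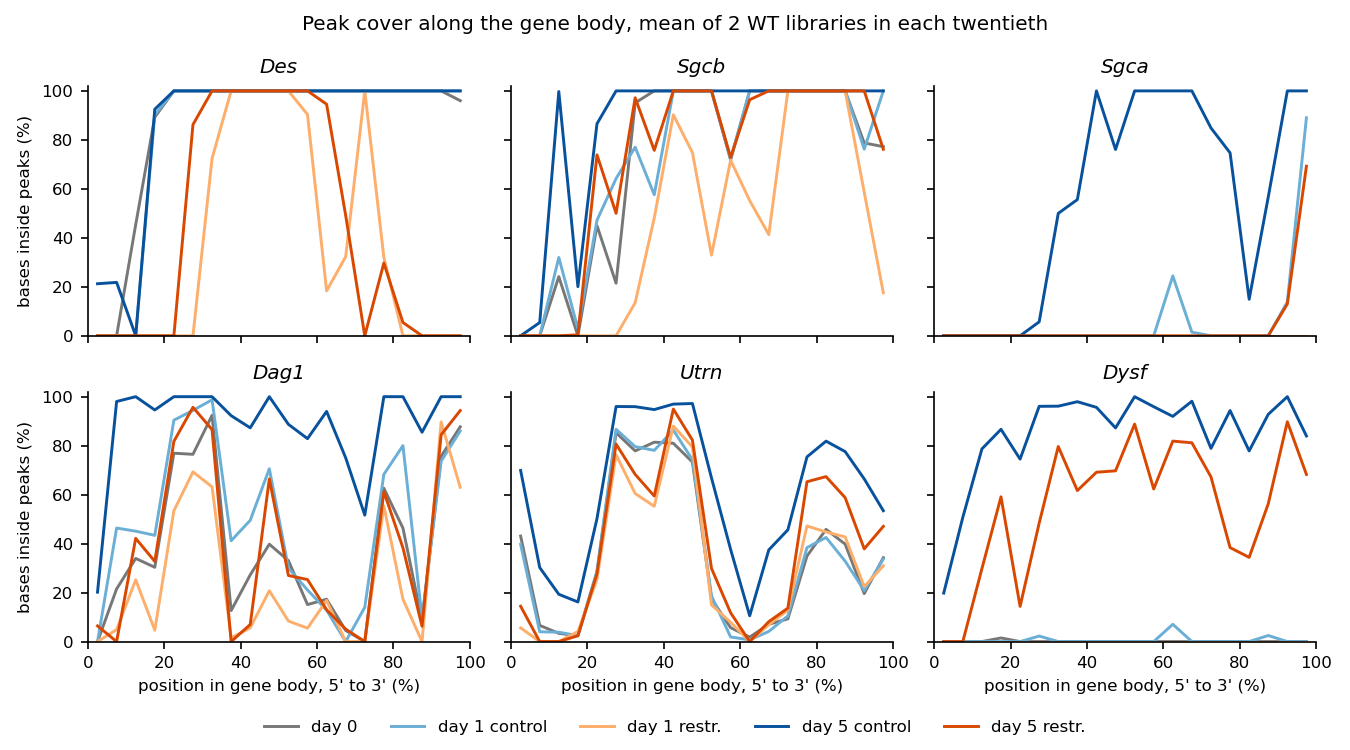
Percent of bases inside peaks (vertical axis) in each twentieth of the gene body from 5′ to 3′ (horizontal axis) for 6 genes, as means of 2 WT libraries, with 1 line per condition. Des keeps its middle under restriction, Dag1 fills in between separate blocks at day 5 in control medium, and Utrn is higher from its 6th to its 10th twentieth than in its 13th in each condition.

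Cover of most of these genes was lower in the Setd2 knockout lines than in WT. This was tested with an exact permutation test, two-sided, over the 7776 assignments of the 4 libraries of each condition to WT and knockout, on all 19304 genes, where the smallest possible p is 0.000257. The same 2 lines recur in all 5 conditions and their libraries were permuted as if independent, so these p-values describe the libraries and are too small for a statement about knockout lines. WT exceeded the knockout lines by 69.0 points in Sgcb, 57.9 in Des, 41.4 in Dag1 and 39.1 in Utrn, averaged over the 5 conditions, each at that smallest p (adjusted exact p = 0.00067). In each of these genes both WT libraries lay above both knockout libraries in all 5 conditions. The share of all genes separated in this way was not counted. Dysf was higher by 27.9 points (adjusted exact p = 0.00973) and Sgca by 12.9 (adjusted exact p = 0.0363), so 6 of the 9 genes were called where 50.5% of all genes were called higher in WT and 51.4% in either direction. Cav3 was higher by 9.73 points (adjusted exact p = 0.568), with 0 in every library of 4 conditions, and Sgcd and Dmd differed by -0.17 (0.714) and -0.0041 (1). The calls of Sgca and Dysf rested on few conditions. Sgca lost its call without line 1 (0.0713) or line 2 (0.145) and without WT replicate 1 (0.0757) or 2 (0.145), and Dysf without line 2 (0.0534) or WT replicate 2 (0.0745); both lost it with only peaks of −log10 q of at least 3 (0.345 and 0.123).

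In knockout line 1 some of the genes had cover at day 5 that they lacked at day 0, and others did not. Des had 0% at day 0, 8.41% and 0% at day 1 in control and restricted medium, and 49.6% and 39.6% at day 5. Dag1 had 0%, 1.34% and 0%, and then 43.6% and 19.3%. Utrn had 0.50%, 0% and 0%, and then 6.96% and 2.05%. Each is a single library, so there is no replicate error behind these differences. The peak list of line 1 itself was 17.7 Mb at day 0 and 74.1 and 45.8 Mb on day 5 in control and restricted medium, and at day 1 under restriction it held 791 peaks over 0.307 Mb. Over all genes with at least 50% cover in WT in the same condition, the median share of WT cover in line 1 was 3.57% at day 0, 39.8% in the day 5 control and 2.98% at day 5 under restriction, where 41.2% of genes were at 0. With only peaks of −log10 q of at least 3, Des had 49.6% and 0% on day 5 in control and restricted medium and Dag1 14.6% and 4.19%, so the restricted value of Des rests on weak peaks alone. The part of list length in the values of these genes was not tested.

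In contrast with Des and Dag1, Sgcb had 0% in all 5 libraries of line 1, although 85.6% of it was covered in WT at day 5 in control medium. Relative to the WT mean of the day 5 controls, line 1 held 57.1% for Des, 49.3% for Dag1, 11.4% for Utrn, 1.5% for Dysf and 0% for Sgcb, Sgca and Cav3. With only peaks of −log10 q of at least 3, cover in that library of line 1 was 49.6% in Des, 14.6% in Dag1, 0.43% in Utrn and 0% in Dysf. In the same order, the WT controls then had 84.7% and 84.5%, 86.5% and 86.6%, 47.2% and 42.9%, and 84.8% and 76.5%. Over the same 5040 genes with at least 50% cover in WT, that share had quartiles of 11.4% and 74.6%, and 592 genes or 11.7% were at 0. Sgcd, with 1.29% and 0.91% cover on day 5 in control and restricted medium, held 24 and 18 short peaks in line 1, more than the 5 and 7 of the WT controls. At day 5 the restricted line 1 had 80.0% of its own control cover in Des and 44.4% in Dag1, and 0% in Des when weak peaks are left out as above. Over the 1622 genes with at least 50% cover in that control, a set that holds neither gene, the median was 57.2%.

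Knockout line 2 had a peak in 1 of its 45 values for these genes, 0.05% of Dmd at day 5 in control medium, from 4 peaks. Line 1 had one in 15 of 45, over 6 of the 9 genes. With only peaks of −log10 q of at least 3 the 16 values above 0 in the 2 lines became 6. Because each line has 1 library per condition, line and library cannot be told apart.

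The other genes of the pathway were taken from lists written down by function and are described by counts, beside all genes tested, with the libraries and tests used for the 9. In the list of other complex subunits, 5 of 12 genes passed the filter. From day 0 to day 5 in control medium 4 rose, where 12.2% of all genes did, and 1 fell. Of the 5, 3 passed the filter only through the day 5 libraries, Sspn and Dtna among them, and of the other 2 genes 1 rose. Sspn, encoding sarcospan, went from 1.13% to 35.3% and the dystrobrevin gene Dtna from 2.69% to 26.0%, while Sntb2, encoding beta-2-syntrophin, fell from 25.0% to 13.6%. Restriction at day 5 lowered 4 of the 5, where 41.5% of all genes fell, among them Sspn to 9.65% and Dtna to 11.1%. Sspn passed the filter only through the day 5 controls, so its fall was built into its being tested, and of the other 4 genes 3 fell.

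Of 8 laminin and integrin genes tested out of 10, none rose and 1 fell from day 0 to day 5, Lamb1 from 96.6% to 90.5%, where 12.2% of all genes rose. Restriction at day 5 lowered 7, against 41.5% of all genes, with a median of -16.2 points. Lama5 went from 88.9% to 64.5% and Itga7, the muscle laminin receptor subunit, from 92.3% to 74.8%. The enzymes that put the laminin-binding sugar on dystroglycan had the smallest median difference of the 6 lists under restriction at day 5: of 12 tested out of 17, none fell, against that 41.5%, and 1 rose, Pomt2 from 45.1% to 63.4%, and the median was -5.41 points against -9.16 over all genes. At day 1, restriction had lowered 5 of the same 12 and 5 of the 8 laminin and integrin genes, against 36.0% of all genes.

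Genes of membrane repair and caveolae, the neighbours of Dysf and Cav3, had 14 of 15 tested. From day 0 to day 5 in control medium 5 rose and none fell, Trim72, which gathers vesicles at membrane tears, from 0% to 83.7% and Capn3, the muscle calpain, from 1.62% to 58.1%. Capn3 passed the filter only through the day 5 controls, and of the other 13 genes 4 rose, against 12.2% of all genes. Restriction lowered 12 of the 14 at each day, against 36.0% and 41.5% of all genes, with medians of -25.2 and -30.1 points over the 14. At day 5 the fall of Capn3, from 58.1% to 2.98%, was built into its being tested, and of the other 13 genes 11 fell. Among these, Anxa2 went from 92.8% to 37.0% and Cavin1 from 68.7% to 14.3%. In the intermediate filament list, the company of Des, 7 of 8 tested out of 10 fell at day 5, 1 of them having passed the filter only through the day 5 controls, Nes, encoding nestin, by 68.1 points and Vim, encoding vimentin, by 33.0. Among costamere genes 8 of 9 tested out of 11 fell, including Lims1, which fell by 43.2 points. From day 0 to day 5 in control medium 3 of those 9 rose, 1 of which passed the filter only through day 5, and none fell.

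**Figure D5:**
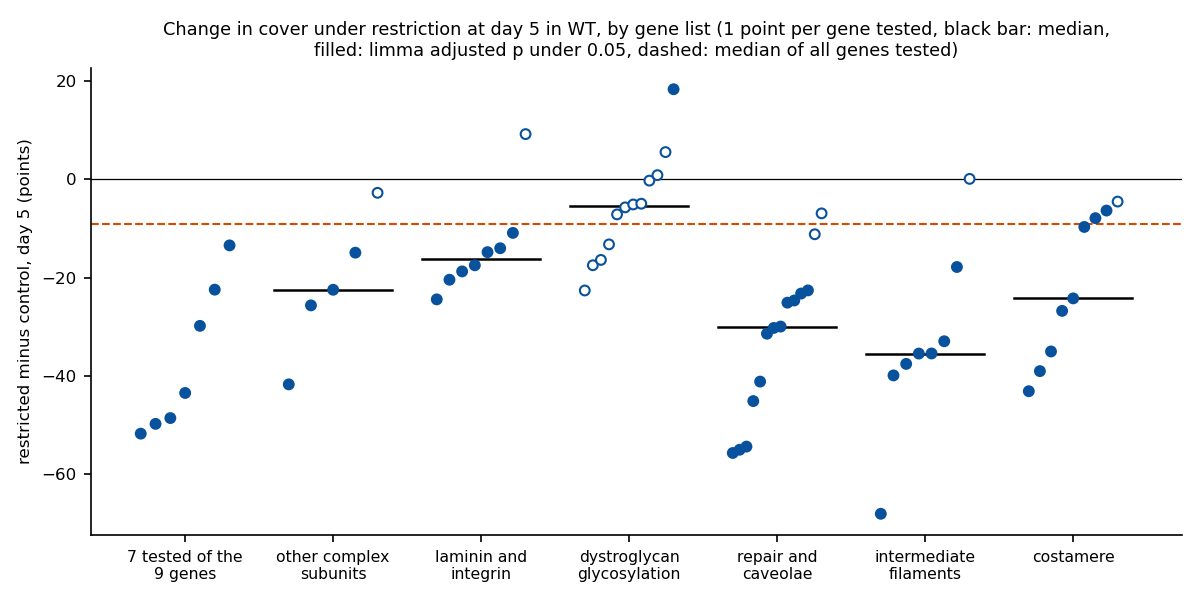
Restricted minus control cover at day 5 in WT cells (vertical axis, percentage points) for each tested gene of 7 lists (horizontal axis), with list medians as black bars (none for the first column, where Sgca and Cav3 had to fall) and the median of all 9514 genes as a dashed line. Filled points have a limma adjusted p under 0.05; the medians run from -35.5 for intermediate filaments to -5.41 for dystroglycan glycosylation, the only list with a filled point above 0. The medians keep Sspn, Dolk, Capn3 and Klhl40, which passed the filter only through the day 5 controls.

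The genes whose cover was most like each of the 9 were found by the mean absolute difference in cover over the 20 libraries. For Dysf these were Myh1 at 1.24 points, Cacna1s at 1.33 and Unc45b at 1.35, a myosin heavy chain, a calcium channel subunit and a myosin chaperone of striated muscle. For Cav3 the nearest was the myosin heavy chain gene Myh4 at 0.493 points, and for Sgca it was Capn3 at 1.47. For Des they were Sec14l1 at 3.02, Dmpk at 3.16 and Klhl30 at 3.58. For Dag1 they were Ube2h at 4.13, Tead4 at 4.24 and the calcium pump gene Atp2a1 at 4.80, for Sgcb Zfyve1 at 2.25 and for Utrn Maco1 at 1.32. For Dmd and Sgcd, which had next to no cover, the nearest genes were others with next to none.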

How the data were processed

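The members and gene lists were chosen with earlier results of these data known. The deposited files were 20 broad-peak lists, 1 per library, with the authors' score, fold enrichment (a ratio) and −log10 p and q per peak, used only to describe or filter peaks. The lowest −log10 q was 1.00. The build, GRCm38, is in the submitters' processing notes. The peak caller, its control and filters are not given in the sources used here. The labels' protocols describe Drosophila chromatin added as a spike-in, which was not used to scale the values here. The input library was not analysed here. A longer or more sensitive list raises cover everywhere, so cover measures detection and not the amount of mark.

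Overlapping peaks were merged, and the percent of each RefSeq body (19304 protein-coding genes of at least 2 kb, GRCm38.p6) inside them was computed with Python 3.11.15 and numpy 2.4.6. WT groups were compared with limma 3.58.1 in R 4.3.3 (trend and robust, 1 fit over 5 groups of 2), on 9514 genes of at least 5% mean cover, called at an adjusted p under 0.05. Knockout was tested by exact permutation within conditions. The code was tested on simulated data. All 9 members are named. From other lists up to 3 genes per direction and contrast were eligible, largest difference first, without overlap of libraries, and 3 most alike genes per member. Some genes, such as Vim and Itga7 under restriction at day 5, are given in a contrast where other genes of their list changed more. Cav1, under other observations, was named outside this rule. Some genes of the other lists are counted but not reported here by name.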

Additional observations from a re-analysis of the deposited data

Results flagged for a closer look

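The effect of restriction differed between day 1 and day 5 in WT cells in 4 genes, by limma's test of the difference between the days (day 5 effect minus day 1 effect): Dag1 by -26.3 points, Sgca by -45.4, Dysf by -29.3 and Cav3 by -48.6. Of all genes tested, 5.20% were called for this difference. Dag1 lost its call when any 1 library of the groups compared was left out. It also lost it with peaks up to 1 kb apart joined (limma, adjusted p = 0.105). Sgca, Dysf and Cav3 had 6.44%, 0.59% and 0% mean cover at day 1 in control medium, which bounds any fall there, and they passed the filter only through day 5 libraries. Sgca also moved against the WT direction in knockout line 1 at day 5, with cover higher by 4.28 points under restriction, from 0% to 1 peak of 0.58 kb, while both WT restricted libraries lay below both controls. The difference in line 1 was not tested, since the line has 1 library per medium. With only peaks of −log10 q of at least 3, Sgca had 0% cover there in both media.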

How the results depend on the processing

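Of the alternatives for single genes, 887 kept direction and side of the threshold, 43 lost a call, 14 gained one, 3 reversed and 1 value without a test moved. Centring each library on its median called 5 of the 7 genes under restriction at day 1 in place of 3, 1 from day 0 to day 1 in place of 0, and 7 from day 0 to restricted day 5 in place of 2. In the same order, it called 50.1%, 3.52% and 59.7% of all genes tested. It reversed Utrn (12.1) and Dysf (14.6) at day 1 and Sgcb (3.22) at day 5. By construction it lifts genes with no cover in libraries of low median. With lists cut to the same length, 4 genes were called under restriction at day 5 in place of 7 (Cav3 was not tested) and 2 for the difference between days in place of 4. Of all genes tested with such lists, 35.6% and 7.05% were called in these comparisons. The arcsine scale called 1 gene, Sgca, from day 0 to day 1, where it called 5.33% of all genes. With only peaks of −log10 q of at least 3, values above 0 in the knockout lines numbered 6 in place of 16. Other causes were not tested.

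Without 1 WT library in turn, the genes called ranged from 3 to 4 (restriction, day 1), 6 to 7 (restriction, day 5), 0 to 0 (day 0 to day 1), 5 to 6 (day 0 to day 5), 5 to 6 (day 1 to day 5), 2 to 2 (day 0 to restricted day 5), 2 to 4 (difference between days) and 4 to 5 (knockout, without WT replicate 1 or 2). A group left with 1 library was assumed to vary like the others.

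With the replicate number as a block the counts of genes called were the same: 3 and 7 for restriction at day 1 and day 5, 0, 6 and 6 between control days, 2 from day 0 to restricted day 5 and 4 for the difference between days. Deviations of same-numbered libraries correlated at -0.439 to 0.0614 over 10 pairs of groups, so the numbers were not taken to pair libraries. Measuring Sgcd from its listed start, an alternative chosen after seeing the data, gave 0.60% in place of 0.24%. Peak lists without depth limit what can be said of genes with no peaks: a mark below the caller's threshold over Dmd or Sgcd would not appear.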

Other observations

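Some genes outside the 9 had more cover in knockout line 1 than in WT at day 5. Lama4, a laminin chain gene, had 24.8% and 49.1% cover in line 1 on day 5 in control and restricted medium and 0% in the WT libraries of every condition. Cav1, encoding caveolin-1, had 76.1% and 67.6% in line 1 and 34.5% and 4.52% in WT. Over all 5 conditions and both lines, Lama4 was called higher in the knockout (adjusted exact p = 0.0187 in the permutation test over all genes), and Cav1 did not pass that test (adjusted exact p = 1). Each line 1 value is 1 library, and the differences within day 5 were not tested.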
